A study of Mus musculus with 6 samples.

Results

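The actin cytoskeleton genes described here are 36 genes that build, bundle, cap, cross-link or pull on actin filaments, together with Srf, the transcription factor that drives many of them. They were chosen by symbol, as genes of this pathway, from the 55487 genes of the deposited table, and each symbol matched 1 gene. RNA-seq was done on RM-1, a mouse prostate cancer cell line grown in culture, as total RNA from 6 libraries in 2 groups. In 3 libraries the cells carried a lentivirus that overexpresses Bhlhe22, a basic helix-loop-helix transcription factor (Bhlhe22 cells). In the other 3 they carried a blank lentiviral vector (vector cells). Both groups were therefore exposed to a lentivirus and came from 1 cell line, and the sources used here name neither the promoter of the virus nor whether cells were clonal. No label tells if the replicates come from separate cultures, and the p-values then measure only the spread between these libraries, which may be technical.

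Actin monomers join into filaments, and profilin, cofilin and thymosins set how fast filaments grow and shrink. Tropomyosins and calponins lie along filaments, alpha-actinins and filamins tie them together, myosin II pulls on them, and vinculin and talin anchor them to integrins at focal adhesions. SRF binds a DNA element called the CArG box. Its cofactors MRTF-A and MRTF-B are held by free actin monomers, so that many actin genes are controlled by the state of actin itself, while ternary complex factors (TCF) direct SRF to immediate early genes.

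Library totals were between 15464709 and 25129552 counts, and 20047 to 21913 genes had at least 1 count. Bhlhe22 itself had 8706, 14785 and 17995 counts in Bhlhe22 replicates 1, 2 and 3, and 0 counts in each vector library. Of 5 epithelial markers 4 were above 1 CPM, where CPM is read counts scaled to a common library size. These were the keratins Krt8, Krt18 and Krt19, and Epcam at only 3.4 to 4.66 CPM. Cdh1 had 0 to 6 counts per library. The epithelial list summed to between 1326.0 and 1572.9 CPM in Bhlhe22 cells and between 1533.2 and 1608.6 CPM in vector cells. Its part in the results was not tested. Of 5 immune markers Itgam, Cd3e and Adgre1 were at 0, and the list summed to at most 52.0 CPM in Bhlhe22 cells and 42.6 CPM in vector cells. Cd68 carried nearly all of this sum, and Ptprc had 0 to 3 counts per library. The fibroblast list summed to between 74.6 and 100.7 CPM in Bhlhe22 cells and between 66.7 and 67.8 CPM in vector cells. Pdgfrb and Col1a1 carried most of it, and Dcn, Lum and Thy1 had 0 to 3 counts per library. Bhlhe22 replicate 1 stood apart. Over 12262 genes, its log2 levels relative to the vector mean, with GC content in the same fit, had a slope of -0.103 per doubling of gene length, against slopes of 0.029 and 0.045 in Bhlhe22 replicates 2 and 3 and of -0.013 to 0.007 in vector libraries, each set against the other vector libraries. For the 36 genes, values without it are given where it changes a call or a sign.

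More of these genes were lower than higher in Bhlhe22 cells. Of the 36, 29 had enough counts to be tested, and 9 of those 29 (31.0%) were lower at an adjusted p below 0.05, where 9.28% of the 14663 genes tested were lower (edgeR quasi-likelihood test, Benjamini-Hochberg adjustment over all genes tested). The 9 were Actb, Cfl1, Tmsb4x, Tpm1, Cnn2, Actn1, Actn4, Vcl and Srf. Fhl2 alone was higher (3.45%), where 10.4% of all tested genes were higher. The other 19 did not pass. In all, 19.6% of tested genes passed in either direction. In 20 of the 29 genes (69.0%) the groups did not overlap, against 40.8% of all tested genes. The median log2 fold change, Bhlhe22 over vector, was -0.19 over the 29 and 0.01 over all tested genes. In bulk RNA, fewer cells of a type and less RNA per cell cannot be told apart.

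Only Cnn2, Actn1 and Srf passed in each of the 6 fits that left out 1 library. The number of lower genes among the 36 was 14 without Bhlhe22 replicate 1, where 15.6% of all tested genes were lower. It was 3 without Bhlhe22 replicate 2 (5.37% of all tested genes) and 5 without Bhlhe22 replicate 3 (7.01%). It was 3 each without vector replicates 1, 2 and 3 (4.25%, 4.54% and 4.6%). Higher genes were Fhl2, Flnc and Zyx without Bhlhe22 replicate 1, where 15.7% of all tested genes were higher. None was higher without Bhlhe22 replicates 2 and 3 (6.07% and 7.93%) or without vector replicates 1, 2 and 3 (4.8%, 5.23% and 5.33%).

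Other ways of fitting moved the lower count less. With all 6 libraries it was 9 under RLE scaling (9.44% of all tested genes lower), 10 under library size alone (10%) and 9 with no filter on low counts (4.38%). It was 12 with DESeq2 (10%) and 9 with limma on FPKM (9.79%). After a correction for length and GC content, added after seeing the data, it was 10 (12.0%). With copies summed it was 10 (9.3%). Copies are other genes that share at least 5% of a listed gene's 50-base stretches and 20% of their own. No gene was higher under RLE scaling (10.1%), library size alone (9.48%), no filter (5.33%) or limma (8.79%). Fhl2 and Flnc were higher with DESeq2 (10.8%) and after the length and GC correction (12.7%), and Fhl2 with copies summed (10.4%).

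**Figure D1:**
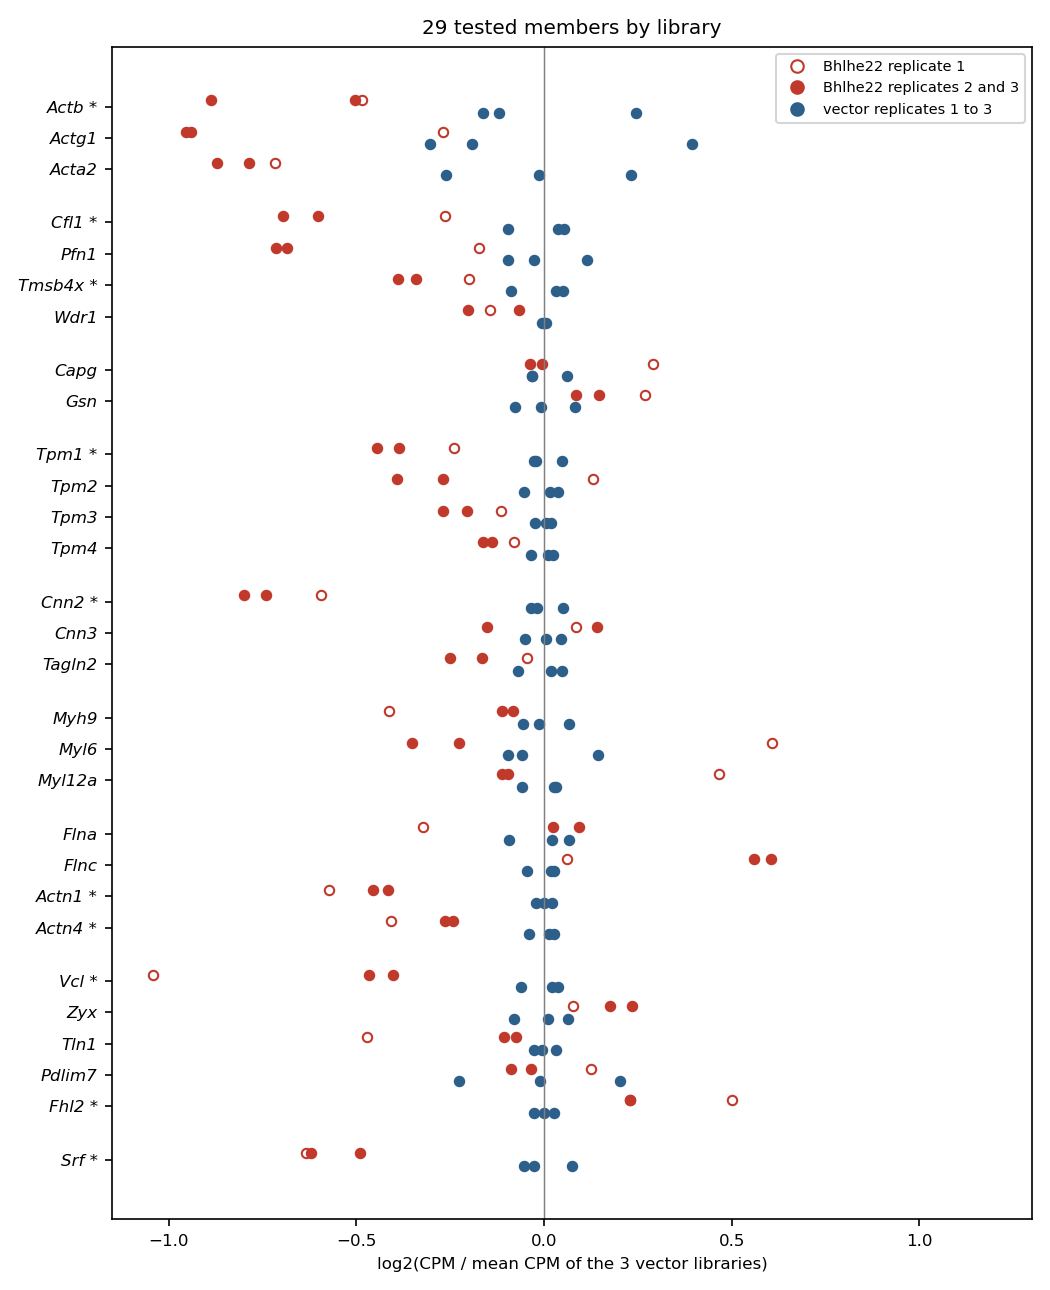
Each of the 29 tested genes is a line, with log2 of its CPM in each library over the mean CPM of the 3 vector libraries on the x axis. Red points are Bhlhe22 libraries, open for replicate 1, blue points are vector libraries, and an asterisk marks the 10 genes that passed the test. For Cnn2, Actn1 and Srf all 3 red points lie left of all blue points, and for Myl6 the open point lies far to the right of the other red points.

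The levels split into 2 ranges. On the authors' FPKM scale (counts scaled by gene length and library size), 28 genes had at least 100 counts in every library and mean FPKM over the 6 libraries between 14.9 and 285.3. The other 8 had fewer than 20 counts in every library and mean FPKM of at most 0.269. These 8 were Acta2, Actg2, Tagln, Cnn1, Lmod1 and Myl9, which are best known from smooth muscle, Myh10, which encodes nonmuscle myosin heavy chain IIB, and Vil1, the villin gene of the intestinal brush border. By FPKM the highest levels were those of Actb, Pfn1, Tmsb4x, Cfl1 and Actg1. The length behind the authors' FPKM was 1.02 to 3.18 times the exon length in GENCODE M21 (median 1.65) for the 28 genes, so the order of neighbouring genes depends on it.

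**Figure D2:**
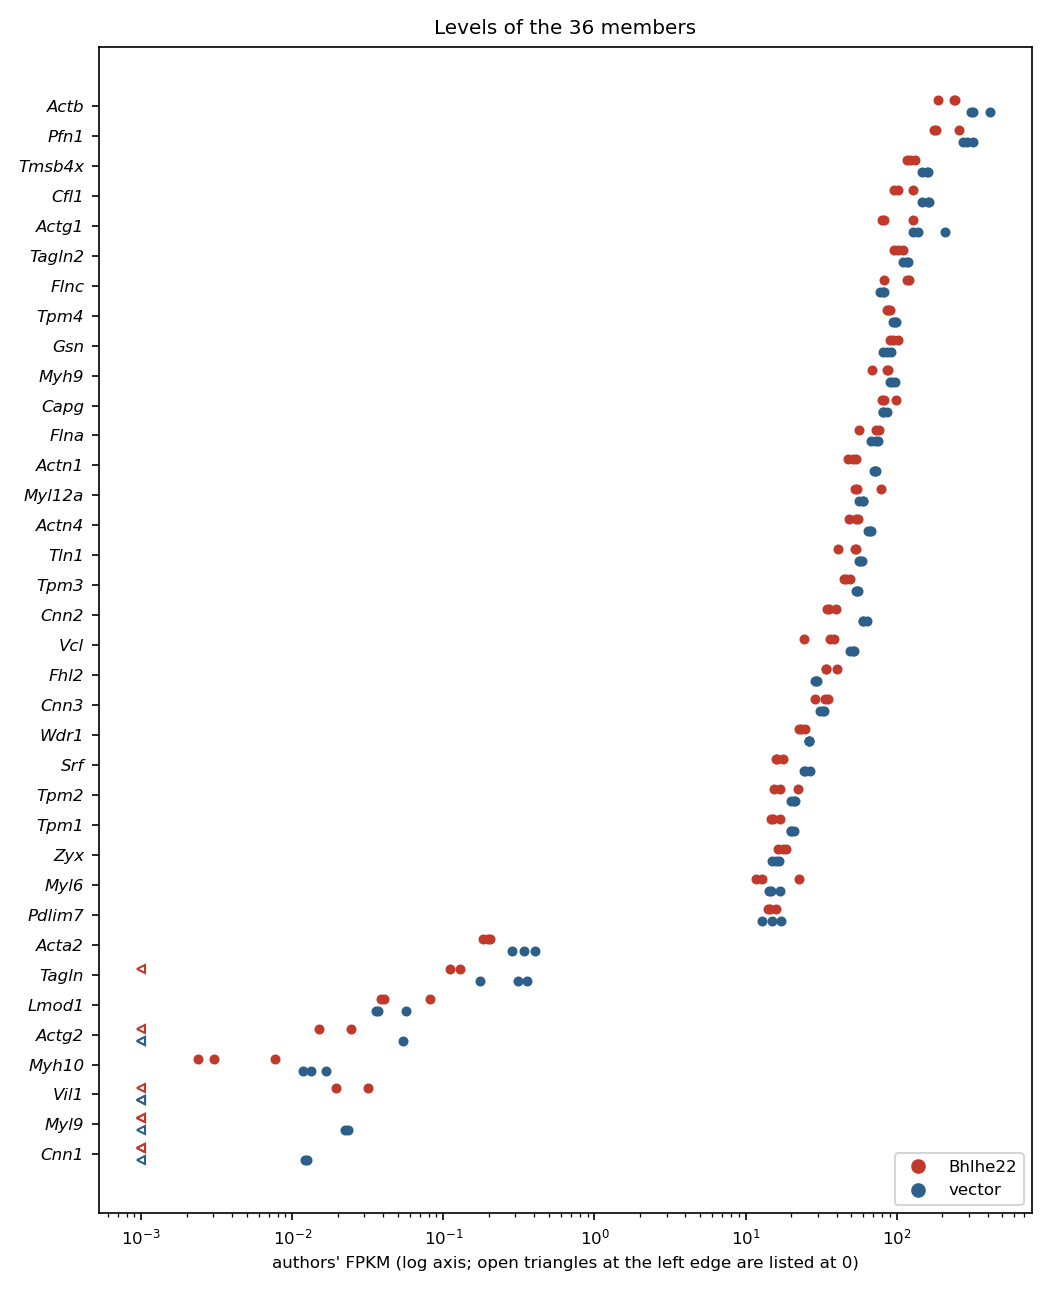
Each of the 36 genes is a line, with the authors' FPKM on a logarithmic x axis and 1 point per library, Bhlhe22 above vector. Open triangles at the left edge are libraries listed at 0. A gap separates the 28 genes with mean FPKM of 14.9 or more from the 8 genes at 0.269 or less.

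Srf encodes serum response factor. Srf had 65.6, 72.4 and 66.2 CPM in Bhlhe22 replicates 1, 2 and 3, against 98.1, 99.9 and 107.2 CPM in vector replicates 1, 2 and 3. The 3 Bhlhe22 libraries were all lower, with no overlap. The mean was 68.0 ± 3.79 CPM in Bhlhe22 cells and 101.7 ± 4.81 CPM in vector cells (SD, n = 3 each), a 0.669-fold level (log2 fold change -0.58, SE 0.08, edgeR adjusted p = 0.0026). Leaving out each library gave -0.62 to -0.54 with adjusted p between 5.3e-04 and 0.020. Srf lies on the minus strand of chromosome 17 (GRCm38, 46548329 to 46556175).

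The CArG box was searched by its name's consensus (CC, 6 bases that are A or T, GG) in RefSeq promoter windows on GRCm38.p6, each 300 bases long with 250 bases before the start and 50 after it. The box reads as the same pattern on both strands. Of the 36 genes, 33 had a window, and 8 of the 33 (24.2%) held a box, against 488 of 27025 genes (1.81%) among all promoters. These genes were put together partly as SRF targets, so this share describes the choice of genes. Actb, Actg2 and Tagln had no window and were not searched. The boxes of the tested genes are shown in 30-base stretches read 5′ to 3′ on the gene's strand, with the box in capitals.
Srf, both boxes, chr17:46556215-46556244, minus strand: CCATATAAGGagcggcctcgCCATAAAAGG
Cnn2, chr10:79988534-79988563, plus strand: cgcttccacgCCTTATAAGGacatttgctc
Vcl, chr14:20929161-20929190, plus strand: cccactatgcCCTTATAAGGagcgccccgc
Actg1, chr11:120348566-120348595, minus strand: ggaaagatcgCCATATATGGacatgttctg
Fhl2, downstream start, chr1:43163973-43164002, minus strand: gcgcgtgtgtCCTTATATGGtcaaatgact
Fhl2, upstream start, chr1:43196838-43196867, minus strand: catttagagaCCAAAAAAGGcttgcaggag
Myl6, chr10:128493040-128493069, minus strand: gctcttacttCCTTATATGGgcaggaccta
The Srf boxes begin 82 and 62 bases before the start, and the Cnn2 and Vcl boxes 56 and 227 bases before it. Cnn2 and Vcl hold the same 10 bases. Of these 6 genes Srf, Cnn2 and Vcl were lower, Fhl2 was higher, and Actg1 and Myl6 did not pass. Myl9 and Vil1 also held a box but were not tested. The lower genes Actn1, Actn4, Cfl1, Tmsb4x and Tpm1 had a window without a box. A match is a description of letters and was not tested as a binding site.

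The actins gave 1 lower gene out of 3 tested (33.3%, against 9.28% of all tested genes). Actb encodes beta-actin, the main cytoplasmic actin with gamma-actin. Actb had 1454.2, 1437.8 and 1100.4 CPM in Bhlhe22 replicates 1, 2 and 3, against 1874.9, 1819.6 and 2414.4 CPM in vector replicates 1, 2 and 3. The Bhlhe22 libraries were all lower, and vector replicate 3 was the highest. The mean was 1330.8 ± 199.7 CPM in Bhlhe22 cells and 2036.3 ± 328.6 CPM in vector cells (SD, n = 3 each), a 0.653-fold level (log2 fold change -0.61, SE 0.15, edgeR adjusted p = 0.029). Actb did not pass when any 1 library was left out, with log2 fold changes from -0.69 to -0.47 and adjusted p from 0.057 to 0.092. Of Actb's 50-base stretches, 14.22% also occur in other genes.

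Actg1 encodes gamma-actin. Actg1 had 813.2, 506.4 and 511.3 CPM in Bhlhe22 replicates 1, 2 and 3, against 1289.3, 793.7 and 857.9 CPM in vector replicates 1, 2 and 3. In both groups replicate 1 was the highest, and Bhlhe22 replicate 1 lay above vector replicate 2, so the groups overlapped. Actg1 did not pass (log2 fold change -0.68, SE 0.25, edgeR adjusted p = 0.10), nor without Bhlhe22 replicate 1 (-0.95, adjusted p = 0.086). With all 6 libraries Actg1 passed with DESeq2 (adjusted p = 0.022). Under RLE scaling, library size alone, no filter, limma on FPKM or the length and GC correction it did not (0.088 to 0.239). Its reads may be split with copies: 56.70% of its 50-base stretches occur in other genes, and Gm12715, a processed pseudogene, holds 51.13% of them. Gm12715 was named after its values were seen.

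Gm12715 had 821.9, 840.4 and 790.4 CPM in Bhlhe22 replicates 1, 2 and 3, against 1322.3, 1295.2 and 1333.3 CPM in vector replicates 1, 2 and 3. It did not have the high replicate 1 of Actg1, its groups did not overlap, and it was lower (log2 fold change -0.69, SE 0.06, edgeR adjusted p = 6.6e-04). Which reads came from the pseudogene and which from Actg1 cannot be told apart in these counts. Summed over Actg1 and 4 processed pseudogenes, the level was 1493.6 ± 180.4 CPM in Bhlhe22 cells and 2433.7 ± 277.3 CPM in vector cells (SD, n = 3 each). On this sum, chosen after seeing the data, the log2 fold change was -0.70 (SE 0.12, edgeR adjusted p = 0.0070). Actg1 made up 47.8%, 35.9% and 37.3% of the sum in Bhlhe22 replicates 1, 2 and 3, and 46.9%, 35.6% and 37.0% in vector replicates 1, 2 and 3.

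**Figure D3:**
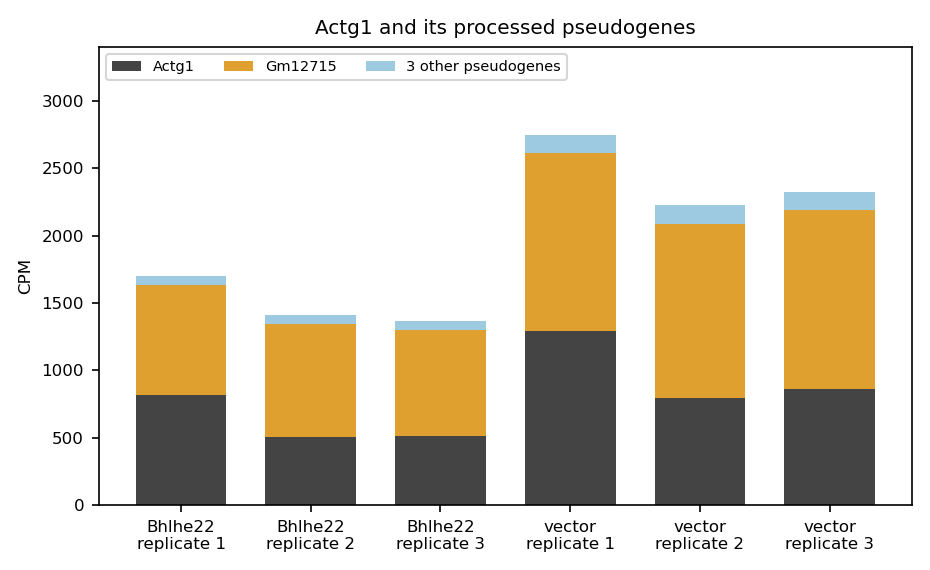
Stacked bars give CPM per library for Actg1, its processed pseudogene Gm12715 and 3 other processed pseudogenes, with the Bhlhe22 libraries on the left and the vector libraries on the right. The sums are 1369.1 to 1700.4 CPM in Bhlhe22 libraries and 2230.3 to 2749.6 CPM in vector libraries, and the Actg1 part is largest in replicate 1 of both groups.

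The smooth muscle actins were near the limit of detection. Acta2, alpha smooth muscle actin, had 7, 8 and 11 counts in Bhlhe22 replicates 1, 2 and 3, against 16, 13 and 16 counts in vector replicates 1, 2 and 3. The Bhlhe22 libraries were all lower, but Acta2 did not pass (log2 fold change -0.78, SE 0.29, edgeR adjusted p = 0.102). Actg2, gamma smooth muscle actin, had 0 or 1 count in Bhlhe22 libraries and 0 to 3 counts in vector libraries, and was not tested. The floor of 3 counts was 0.119 to 0.197 CPM per library.

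Among proteins of actin turnover, 2 of 4 were lower, where 9.28% of all tested genes were lower. The groups of all 4 did not overlap, where 40.8% of all tested genes had no overlap. Cfl1, cofilin, cuts and depolymerises filaments. Cfl1 had 561.0, 444.2 and 416.1 CPM in Bhlhe22 replicates 1, 2 and 3, against 691.4, 630.8 and 698.9 CPM in vector replicates 1, 2 and 3. Bhlhe22 replicate 1 was the nearest to the vector libraries. Cfl1 fell by 0.51 on the log2 scale (SE 0.12, edgeR adjusted p = 0.026), and by 0.65 without Bhlhe22 replicate 1 (adjusted p = 1.5e-04). Without any other library the call was lost (adjusted p from 0.061 to 0.098). Exons of Snx32 on the opposite strand cover 16.46% of Cfl1's exon length, and the sources used here do not give the strandedness of the counts.

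Pfn1, profilin, loads actin monomers with ATP and feeds them to growing ends. Pfn1 had 1092.8, 750.6 and 766.5 CPM in Bhlhe22 replicates 1, 2 and 3, against 1153.1, 1210.4 and 1333.2 CPM in vector replicates 1, 2 and 3. Bhlhe22 replicate 1 lay just under the lowest vector library and the other Bhlhe22 libraries far below. Pfn1 did not pass (log2 fold change -0.50, SE 0.15, edgeR adjusted p = 0.060), but passed without Bhlhe22 replicate 1 (-0.71, adjusted p = 1.9e-04). With all 6 libraries it passed under library size alone (adjusted p = 0.049), DESeq2 (0.013) and the length and GC correction (0.021). Under RLE scaling, no filter on low counts or limma on FPKM it did not (0.056 to 0.061).

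Tmsb4x encodes thymosin beta-4, which holds monomers in reserve. Tmsb4x had 282.5, 247.8 and 256.3 CPM in Bhlhe22 replicates 1, 2 and 3, against 332.1, 336.3 and 305.6 CPM in vector replicates 1, 2 and 3. All Bhlhe22 libraries were lower. It fell by 0.31 on the log2 scale (SE 0.08, edgeR adjusted p = 0.034). It passed without Bhlhe22 replicate 1 (adjusted p = 0.0017) and was lost without any other library (0.067 to 0.130). Wdr1, a cofactor of cofilin, had 273.6 to 300.8 CPM in Bhlhe22 cells and 313.7 to 316.4 CPM in vector cells, and did not pass (log2 fold change -0.14, SE 0.07, adjusted p = 0.191).

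The gelsolin and villin family, which caps filament ends, had no gene that passed. Gsn, gelsolin, had 453.8, 399.8 and 417.2 CPM in Bhlhe22 replicates 1, 2 and 3, against 356.9, 374.5 and 398.7 CPM in vector replicates 1, 2 and 3. The Bhlhe22 libraries were all higher, by little (log2 fold change 0.17, SE 0.08, edgeR adjusted p = 0.181). Capg, a capping protein, overlapped between groups at 331.5 to 415.8 CPM in Bhlhe22 cells and 332.5 to 355.2 CPM in vector cells (0.09, SE 0.10, adjusted p = 0.584). Its difference was -0.03 without Bhlhe22 replicate 1. Vil1 had 2, 0 and 2 counts in Bhlhe22 replicates 1, 2 and 3 and 0 in each vector library.

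Of the tropomyosins, which stabilise filaments, 1 of 4 was lower (25.0%, against 9.28% of all tested genes). All 4 had negative log2 fold changes, against 7148 of 14663 tested genes. Tpm1 had 282.9, 255.3 and 245.0 CPM in Bhlhe22 replicates 1, 2 and 3, against 344.8, 327.5 and 328.9 CPM in vector replicates 1, 2 and 3. The groups did not overlap. Tpm1 fell by 0.35 on the log2 scale (SE 0.08, edgeR adjusted p = 0.019). It passed without Bhlhe22 replicate 1 (adjusted p = 3.9e-04) and not without any other library (0.054 to 0.084). After the correction for length and GC content its adjusted p was 0.122.

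Tpm3 had 529.3 to 589.0 CPM in Bhlhe22 cells and 626.3 to 645.7 CPM in vector cells, and Tpm4 had 605.9 to 642.3 CPM in Bhlhe22 cells and 662.0 to 690.5 CPM in vector cells. Neither pair of groups overlapped, and neither gene passed (log2 fold changes -0.19 and -0.13, edgeR adjusted p = 0.090 and 0.210). Of the fits to all 6 libraries, Tpm3 passed with DESeq2 alone (adjusted p = 0.037). Tpm2 overlapped at 87.2 to 125.2 CPM in Bhlhe22 cells and 110.2 to 117.3 CPM in vector cells (-0.16, SE 0.13, adjusted p = 0.451). Without Bhlhe22 replicate 1, the highest of the 6 for Tpm2, the 3 genes passed (adjusted p = 0.0032 for Tpm3, 0.020 for Tpm4 and 0.0043 for Tpm2). The retrogene Tpm3-rs7 shares 62.41% of the 50-base stretches of Tpm3, and the 2 summed had an adjusted p of 0.078. Lmod1, leiomodin, which starts filaments in smooth muscle, had 3 to 5 counts in Bhlhe22 libraries and 3 to 4 in vector libraries.

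Cnn2 had the lowest adjusted p of the 29. It encodes calponin 2, an actin-binding protein of many nonmuscle cells. Cnn2 had 117.0, 105.7 and 101.4 CPM in Bhlhe22 replicates 1, 2 and 3, against 174.2, 172.4 and 183.0 CPM in vector replicates 1, 2 and 3. All 3 Bhlhe22 libraries lay well under the vector libraries. The mean was 108.0 ± 8.02 CPM in Bhlhe22 cells and 176.5 ± 5.63 CPM in vector cells (SD, n = 3 each), a 0.612-fold level (log2 fold change -0.71, SE 0.08, edgeR adjusted p = 0.0012). Leaving out each library gave -0.78 to -0.66 with adjusted p between 4.4e-05 and 0.012.

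Its relative Cnn3 did not pass. Cnn3 had 228.8, 237.9 and 194.0 CPM in Bhlhe22 replicates 1, 2 and 3, against 208.3, 222.4 and 216.4 CPM in vector replicates 1, 2 and 3. The groups overlapped (log2 fold change 0.03, SE 0.09, edgeR adjusted p = 0.859), with values of -0.01 without Bhlhe22 replicate 1 and -0.03 without Bhlhe22 replicate 2. By FPKM, Cnn2 made up 54.2%, 50.7% and 54.8% of the 3 calponins in Bhlhe22 replicates 1, 2 and 3, against 66.0%, 64.3% and 66.2% in vector replicates 1, 2 and 3. Cnn1, the smooth muscle calponin, had 0 counts in every Bhlhe22 library and 0, 1 and 1 in vector replicates 1, 2 and 3.

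Tagln2, a transgelin of nonmuscle cells, overlapped at 289.2 to 333.1 CPM in Bhlhe22 cells and 327.9 to 355.4 CPM in vector cells (log2 fold change -0.15, SE 0.08, edgeR adjusted p = 0.220). It passed without Bhlhe22 replicate 1 (adjusted p = 0.017). With all 6 libraries it passed after the length and GC correction (adjusted p = 0.039) and not in the other fits (0.105 to 0.372). Tagln, the transgelin of smooth muscle and a known SRF target, had 5, 0 and 7 counts in Bhlhe22 replicates 1, 2 and 3, against 14, 9 and 19 in vector replicates 1, 2 and 3. The groups did not overlap, but the gene was under the filter, and exons of Pcsk7 and Gm48529 on the opposite strand cover 67.86% of its exon length. Of 6 smooth muscle markers only Smtn and Des were above 1 CPM, and Myh11, Myocd, Synpo2 and Kcnmb1 were below 1 CPM in every library. The list summed to between 424.3 and 448.5 CPM in Bhlhe22 cells and between 376.7 and 401.5 CPM in vector cells. Smtn, smoothelin, carried nearly all of it, with 409.9 to 434.5 CPM in Bhlhe22 cells and 364.8 to 390.3 CPM in vector cells, and did not pass (log2 fold change 0.16, SE 0.06, edgeR adjusted p = 0.126), though it did without Bhlhe22 replicate 1 (adjusted p = 0.024).

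No gene of myosin II passed. Myh9, the nonmuscle heavy chain IIA, had 1013.7, 1274.5 and 1249.1 CPM in Bhlhe22 replicates 1, 2 and 3, against 1297.2, 1337.0 and 1411.4 CPM in vector replicates 1, 2 and 3. Bhlhe22 replicate 1 was the lowest and the others came close to vector replicate 1 (log2 fold change -0.19, SE 0.10, edgeR adjusted p = 0.229). Without that library the value was -0.10 and did not pass. Myh10 had 2, 1 and 1 counts in Bhlhe22 replicates 1, 2 and 3 and 4, 4 and 6 in vector replicates 1, 2 and 3, too few to test.

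For the light chains, Bhlhe22 replicate 1 set the sign. Myl6, the essential light chain, had 189.4, 97.5 and 106.3 CPM in Bhlhe22 replicates 1, 2 and 3, against 119.5, 116.3 and 137.4 CPM in vector replicates 1, 2 and 3. Only replicate 1 of the Bhlhe22 libraries lay above the vector libraries. Its log2 fold change was 0.07 (SE 0.25, edgeR adjusted p = 0.877), turning to -0.29 without that library (adjusted p = 0.033). Myl12a, a regulatory light chain, had 481.1, 321.8 and 325.4 CPM in Bhlhe22 replicates 1, 2 and 3 and 334.2 to 355.5 CPM in vector cells (0.11, SE 0.16, adjusted p = 0.673). Without Bhlhe22 replicate 1 its value was -0.11. Copies share 18.47% of the 50-base stretches of Myl6 and 29.61% of those of Myl12a, so both levels are uncertain. Myl9, the smooth muscle regulatory light chain, had 0 counts in every Bhlhe22 library and 0, 1 and 1 in vector replicates 1, 2 and 3.

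Both alpha-actinins, which bundle filaments and link them to adhesions, were lower, where 9.28% of all tested genes were lower. Actn1 had 341.2, 370.3 and 380.3 CPM in Bhlhe22 replicates 1, 2 and 3, against 499.8, 507.8 and 514.9 CPM in vector replicates 1, 2 and 3. All 3 Bhlhe22 libraries lay far under the vector libraries. The mean was 363.9 ± 20.3 CPM in Bhlhe22 cells and 507.5 ± 7.54 CPM in vector cells (SD, n = 3 each), a 0.717-fold level (log2 fold change -0.48, SE 0.07, edgeR adjusted p = 0.0038). Leaving out each library gave -0.51 to -0.44 with adjusted p between 1.8e-04 and 0.028.

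Actn4 had 509.7, 563.4 and 571.0 CPM in Bhlhe22 replicates 1, 2 and 3, against 657.4, 682.5 and 688.2 CPM in vector replicates 1, 2 and 3. The groups did not overlap, with a smaller gap than for Actn1. Actn4 fell by 0.30 on the log2 scale (SE 0.07, edgeR adjusted p = 0.026). This held without Bhlhe22 replicate 1 or 3 and was lost without Bhlhe22 replicate 2 or any vector replicate (adjusted p from 0.068 to 0.104). By FPKM, Actn1 made up 49.3%, 48.8% and 49.2% of the pair in Bhlhe22 replicates 1, 2 and 3, against 52.5%, 51.9% and 52.1% in vector replicates 1, 2 and 3.

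The filamins, large cross-linkers that form orthogonal networks, did not pass. Flnc, best known from muscle, had 847.6, 1235.4 and 1198.0 CPM in Bhlhe22 replicates 1, 2 and 3, against 786.6, 827.4 and 823.2 CPM in vector replicates 1, 2 and 3. Bhlhe22 replicates 2 and 3 were far above the vector libraries and replicate 1 just above. The log2 fold change was 0.43 (SE 0.14, edgeR adjusted p = 0.075). Without Bhlhe22 replicate 1 it was 0.58 (adjusted p = 5.3e-05), and after the length and GC correction 0.44 (adjusted p = 0.024). Flna, the broadly expressed filamin, overlapped at 910.7 to 1213.6 CPM in Bhlhe22 cells and 1068.1 to 1191.9 CPM in vector cells (-0.06, SE 0.12, adjusted p = 0.778). Its value was 0.05 without Bhlhe22 replicate 1. By FPKM, Flnc made up 59.1%, 61.3% and 61.7% of the pair in Bhlhe22 replicates 1, 2 and 3, against 50.6%, 52.7% and 54.5% in vector replicates 1, 2 and 3.

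The make-up of the families was compared as shares of each family's summed FPKM. The exact two-sided permutation test over 3 against 3 libraries cannot go below 0.1. The Cnn2 share was 53.3% ± 2.2 in Bhlhe22 cells and 65.5% ± 1.07 in vector cells (SD, n = 3 each, exact p = 0.1). The Flnc share was 60.7% ± 1.37 in Bhlhe22 cells and 52.6% ± 1.93 in vector cells (exact p = 0.1). Actn1 had 49.1% ± 0.236 in Bhlhe22 cells and 52.2% ± 0.28 in vector cells (exact p = 0.1). Tpm1 had 9.27% ± 0.245 of the tropomyosins in Bhlhe22 cells and 10.5% ± 0.233 in vector cells (exact p = 0.1). Tropomyosin shares left out the retrogene Tpm3-rs7, with mean FPKM of 99.7 in Bhlhe22 cells and 121.9 in vector cells. Tpm3 itself had 46.9 and 54.5. The length behind FPKM was 16538 bases for Tpm1, against an exon length of 6485, so the tropomyosin shares are uncertain. For the actins, Actb had 69.9% ± 4.82 in Bhlhe22 cells and 68.7% ± 7.35 in vector cells, which overlapped (exact p = 0.9). Actin shares used Actg1 without its pseudogenes. Actg1 held only 35.6% to 47.8% of the summed CPM of itself and 4 pseudogenes, so the actin shares are uncertain. Since 0.1 is the smallest p this design allows, these tests could not pass 0.05, and shares within a family are not independent of each other. The lowest p adjusted over the 22 shares was 0.2.

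**Figure D4:**
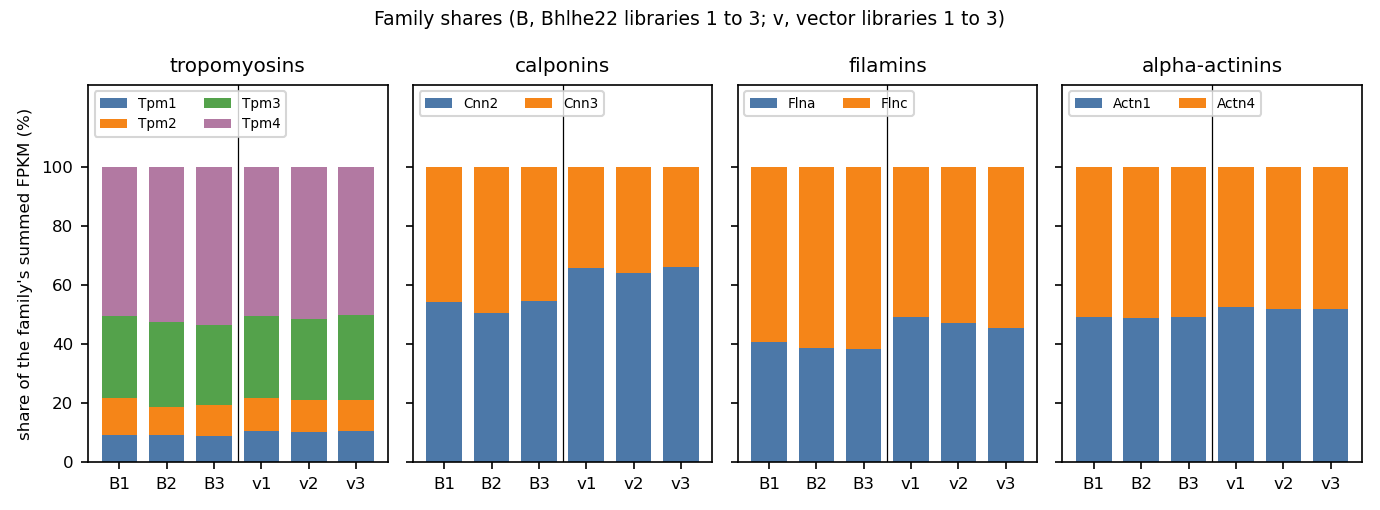
Stacked bars give each gene's share of its family's summed FPKM, in percent, for Bhlhe22 libraries (B1 to B3, left of the line) and vector libraries (v1 to v3, right of it). Cnn2 holds 50.7% to 54.8% of the calponins in Bhlhe22 libraries and 64.3% to 66.2% in vector libraries.

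At focal adhesions, 1 of 5 tested genes was lower and 1 higher, where 9.28% of all tested genes were lower and 10.4% higher. Vcl, vinculin, strengthens the link between talin and actin under load. Vcl had 205.1, 305.4 and 319.1 CPM in Bhlhe22 replicates 1, 2 and 3, against 404.6, 432.7 and 428.4 CPM in vector replicates 1, 2 and 3. Bhlhe22 replicate 1 was far below the others. Vcl fell by 0.61 on the log2 scale (SE 0.16, edgeR adjusted p = 0.037), and by 0.44 without Bhlhe22 replicate 1, where it also passed. It did not pass without Bhlhe22 replicate 2 or any vector replicate (adjusted p from 0.065 to 0.118). Exons of Ap3m1 on the opposite strand cover 25.52% of the exon length of Vcl.

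Fhl2, a LIM domain adaptor and known SRF target, was the only higher gene. Fhl2 had 100.6, 83.4 and 83.4 CPM in Bhlhe22 replicates 1, 2 and 3, against 72.4, 69.8 and 71.1 CPM in vector replicates 1, 2 and 3. All Bhlhe22 libraries were higher, replicate 1 most. The log2 fold change was 0.32 (SE 0.09, edgeR adjusted p = 0.048). It passed without Bhlhe22 replicate 1 (adjusted p = 0.012) and not without any other library (0.057 to 0.154). Under RLE scaling, library size alone, no filter on low counts or limma on FPKM it did not pass (adjusted p from 0.050 to 0.058).

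The other adhesion genes did not pass. Zyx, zyxin, had 149.0 to 166.1 CPM in Bhlhe22 cells and 133.7 to 147.7 CPM in vector cells, with no overlap (log2 fold change 0.16, SE 0.07, edgeR adjusted p = 0.170). It passed without Bhlhe22 replicate 1 (adjusted p = 0.034). Tln1, talin, the integrin activator, had 471.8, 621.1 and 607.3 CPM in Bhlhe22 replicates 1, 2 and 3, against 642.1 to 668.6 CPM in vector cells (-0.21, SE 0.11, adjusted p = 0.241). Without Bhlhe22 replicate 1 the Tln1 value was -0.10 and did not pass. Bhlhe22 replicate 1 was the lowest of the Bhlhe22 libraries for Tln1, as for Vcl, Flnc, Flna and Myh9. It was also the lowest for Actn4, Actn1, Zyx and Srf, the last with a length behind FPKM of 4070 bases. For Tpm1 and Tpm3, at 16538 and 11776 bases, it was the highest of the Bhlhe22 libraries. The part of its length trend in these results was not tested. Pdlim7, a PDZ and LIM domain protein, overlapped at 119.4 to 138.4 CPM in Bhlhe22 cells and 108.5 to 146.0 CPM in vector cells (0.00, SE 0.12, adjusted p = 0.988), with a value of -0.07 without Bhlhe22 replicate 1.

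**Figure D5:**
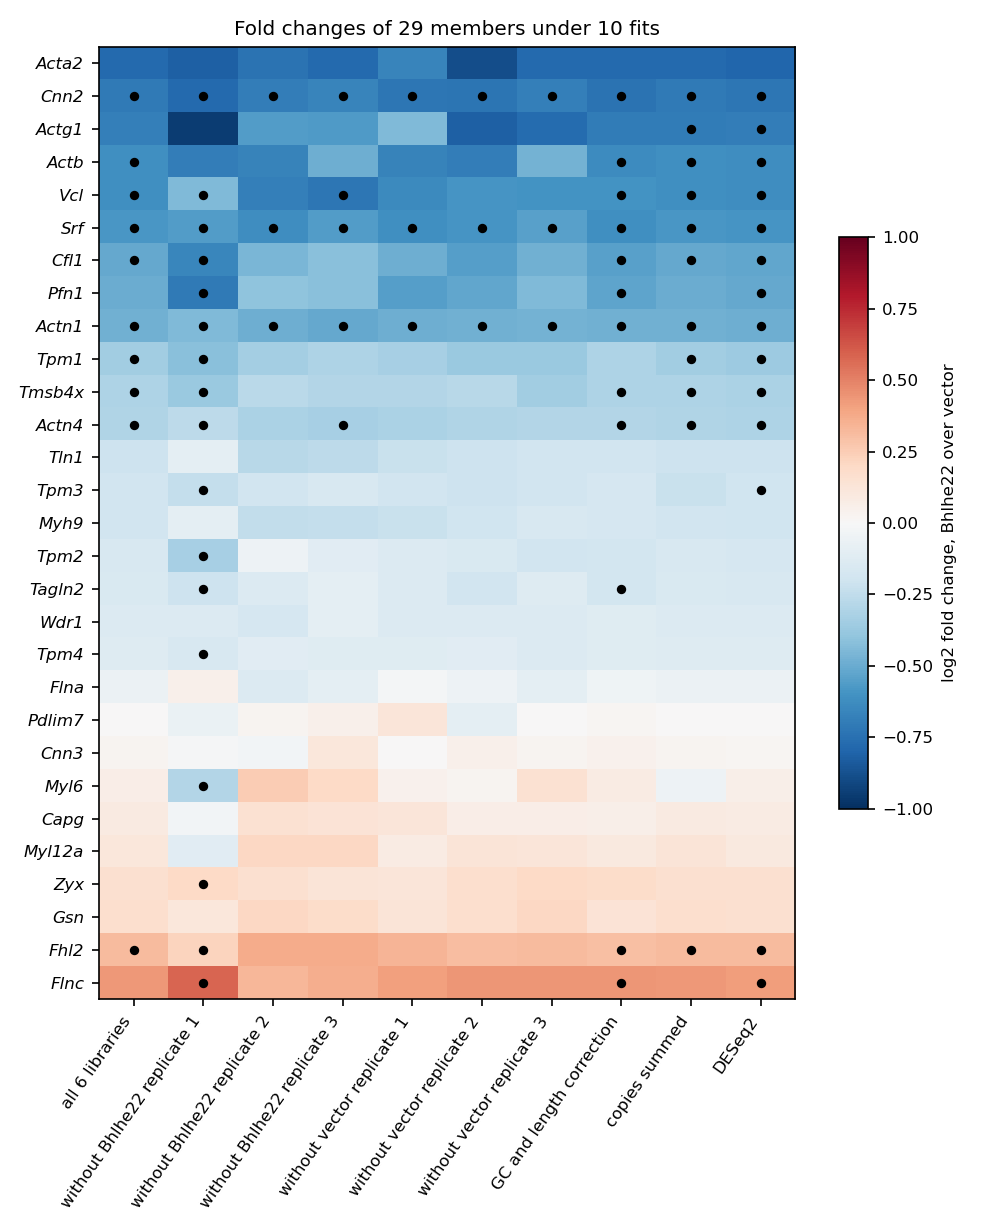
Each of the 29 tested genes is a line and each column a fit, coloured by log2 fold change, Bhlhe22 over vector, with a dot where the adjusted p is below 0.05. Cnn2, Actn1 and Srf carry a dot in all 10 columns, Actb has none where 1 library is left out, and the column without Bhlhe22 replicate 1 has the most dots (17).

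Other genes of the pathway were listed by role, and 90 of 99 were tested. Of the 90, 11 (12.2%) were lower and 7 (7.78%) higher, against 9.28% lower and 10.4% higher among all tested genes. Their median log2 fold change was -0.06. Without Bhlhe22 replicate 1, 18 were lower and 18 higher, where 15.6% of all tested genes were lower and 15.7% higher. The lower count was 5 without vector replicate 1 and 7 each without vector replicates 2 and 3. In those fits 4.25%, 4.54% and 4.6% of all tested genes were lower. The higher count was 3 each without Bhlhe22 replicate 2, vector replicate 1 and vector replicate 2. In those fits 6.07%, 4.8% and 5.23% of all tested genes were higher. Of 13 tested MRTF-SRF target genes outside the 36, 4 were lower (30.8%, against 9.28% of all tested genes) and none higher, with a median of -0.09. These were Ccn2, Ccn1, Thbs1 and Lima1, and all 4 passed in each fit that left out 1 library. Ccn2 and Ccn1 encode matricellular proteins also known as targets of YAP, Thbs1 encodes thrombospondin 1, and Lima1 encodes an actin bundling protein.

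Ccn2 had 38.1, 42.2 and 41.0 CPM in Bhlhe22 replicates 1, 2 and 3, against 88.5, 91.5 and 91.2 CPM in vector replicates 1, 2 and 3. The groups lay far apart (log2 fold change -1.16, SE 0.07, edgeR adjusted p = 1.7e-04). Ccn1 fell by 0.69 on the log2 scale (adjusted p = 8.1e-04), Thbs1 by 0.76 (0.0082) and Lima1 by 0.51 (0.0059).

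Of 8 tested TCF-SRF immediate early genes, 2 were higher (25.0%, against 10.4% of all tested genes) and 1 lower (12.5%, against 9.28%), with a median of 0.12. Egr1, an early growth response factor, had 318.7 ± 36.5 CPM in Bhlhe22 cells and 237.8 ± 5.81 CPM in vector cells (SD, n = 3 each, log2 fold change 0.42, edgeR adjusted p = 0.021). Ier2 was higher by 0.36 (adjusted p = 0.018) and Nr4a1, a nuclear receptor, fell by 0.43 (adjusted p = 0.023). Egr1 and Nr4a1 passed in 1 of the fits that left out a library, and Ier2 in 2. The lost calls had adjusted p from 0.057 to 0.096 for Egr1, 0.052 to 0.088 for Nr4a1 and 0.052 to 0.082 for Ier2.

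The cofactors of SRF gave 1 lower gene of 5 tested with all libraries, where 9.28% of all tested genes were lower. They gave 3 more that were higher without Bhlhe22 replicate 1, where 15.7% of all tested genes were higher. Elk3, a TCF, had 116.2, 133.3 and 128.6 CPM in Bhlhe22 replicates 1, 2 and 3, against 168.5, 162.0 and 163.6 CPM in vector replicates 1, 2 and 3. The groups did not overlap (log2 fold change -0.39, SE 0.07, edgeR adjusted p = 0.012). Elk3 did not pass without vector replicate 1 or 3 (0.052 to 0.066). Mrtfa, the gene of MRTF-A, had 78.1, 85.8 and 98.0 CPM in Bhlhe22 replicates 1, 2 and 3 and 76.0 to 78.9 CPM in vector cells, and did not pass (0.17, adjusted p = 0.252). Without Bhlhe22 replicate 1 it was higher (adjusted p = 0.030). Mrtfb, the gene of MRTF-B, had 32.1, 53.3 and 58.4 CPM in Bhlhe22 replicates 1, 2 and 3, against 43.0, 49.2 and 46.6 CPM in vector replicates 1, 2 and 3. Bhlhe22 replicate 1 lay under the vector libraries and the other Bhlhe22 libraries above them. Mrtfb did not pass with all libraries (0.05, SE 0.21, adjusted p = 0.893), and without that library it was higher by 0.26 (adjusted p = 0.039). Elk4, another TCF, likewise passed without Bhlhe22 replicate 1 alone (0.25, adjusted p = 0.020) and not with all libraries (0.15, adjusted p = 0.394). Elk1 did not pass in any of these fits, and Myocd, the smooth muscle cofactor, was near 0 in all libraries.

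Of 17 genes of the Arp2/3 complex, which starts branched filaments, and of its activators, 1 passed (5.88% higher, against 10.4% of all tested genes). Arpc5l, a subunit of the complex, had 178.3, 145.6 and 143.5 CPM in Bhlhe22 replicates 1, 2 and 3, against 62.2, 66.6 and 69.2 CPM in vector replicates 1, 2 and 3. All Bhlhe22 libraries lay far above the vector libraries (log2 fold change 1.24, SE 0.10, edgeR adjusted p = 4.7e-04). Arpc5l passed without each library.

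Among proteins of filament ends and monomers, 2 of 16 were higher and 2 lower (12.5% each, near the 10.4% higher and 9.28% lower among all tested genes). Avil, advillin, a gelsolin family member known from sensory neurons, had 24.1, 21.5 and 20.1 CPM in Bhlhe22 replicates 1, 2 and 3, against 1.44, 1.26 and 1.5 CPM in vector replicates 1, 2 and 3. Its log2 fold change, the highest of the 90, was 3.96 (SE 0.14, edgeR adjusted p = 3.7e-05), and Avil passed without each library. Vasp, which lengthens filaments at adhesions, was higher by 0.43 (adjusted p = 0.028, otherwise 0.088 to 0.109 without Bhlhe22 replicate 2 or vector replicate 1 or 2). Tmsb10, thymosin beta-10, fell by 0.46 (adjusted p = 0.034) and Dstn, destrin, a relative of cofilin, fell by 0.25 (adjusted p = 0.043). Tmsb10 and Dstn passed without Bhlhe22 replicate 1 and not without any other library (0.063 to 0.124 and 0.094 to 0.155).

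Of 14 focal adhesion partners 2 were lower (14.3%, against 9.28% of all tested genes). Lasp1, a LIM and SH3 protein, had 308.6 ± 9.19 CPM in Bhlhe22 cells and 425.9 ± 9.73 CPM in vector cells (SD, n = 3 each, log2 fold change -0.46, edgeR adjusted p = 0.0030), and passed without each library. Parva, parvin, which links integrin-linked kinase to actin, fell by 0.43 (adjusted p = 0.0096), lost without vector replicate 1 (0.055).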

How the data were processed

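The authors' deposited table held raw counts per gene and FPKM for 6 RM-1 libraries, 3 per group, per the file headers. The submitters' processing notes name CASAVA 1.8, HISAT2 2.1.0, StringTie 1.3.4b and edgeR with GRCm38, without a role for each. The sources used here give neither annotation nor strandedness. The authors' FPKM were counts per kilobase of 1 length per gene, which was checked where every library had 100 or more counts (the same length in all libraries within 0.001% in 10435 of 10435 genes). Counts were tested with edgeR 4.0.16 in R 4.3.3 (TMM scaling, filterByExpr with minimum count 10 and minimum total 15, robust quasi-likelihood fit, no covariate, Benjamini-Hochberg adjustment over 14663 genes, threshold 0.05), and the fit was tested on simulated data. Alternatives were DESeq2 1.42.0, limma 3.58.1 on log2(FPKM + 1), other scalings, no filter, a replicate block and leaving out each library. Shared 50-base stretches, overlaps and exon lengths came from GENCODE M21, and promoter sequences from RefSeq. Tables and plots used Python 3.11.15, numpy 2.4.6, pandas 2.3.3, scipy 1.17.1 and matplotlib 3.10.9. The members, the lists and the tests were chosen with earlier results of these data known. Named besides the 36 genes were up to 4 called genes per pathway list with the smallest adjusted p, genes that share sequence with a member, marker genes and SRF cofactors. Floors of 3 counts cover counting error only. Some marker genes and 1 pathway list, counted in the pathway totals, are not reported here.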

Additional observations from a re-analysis of the deposited data

How the results depend on the processing

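Of 434 refitted values for the 29 genes, 15 changed sign, 20 gained and 45 lost the call, and 354 kept both. Members lower ranged from 3 to 14, and members higher from 0 to 3, when each library was left out. No member was higher (0) under RLE scaling, library size alone, no filter, limma on FPKM or the replicate block, and 2 were higher with DESeq2 and with the GC and length correction, with or without the replicate block. Over all genes, lower calls ranged from 633 to 2337 and higher calls from 715 to 2345 when each library was left out, and for the pathway lists from 5 to 18 lower and from 3 to 18 higher. Replicate numbers were not shown to pair the samples: same-numbered libraries had correlations of their deviations of 0.029, 0.021 and 0.016. With the replicate block 7 members were lower (6.77% of all tested genes) and 0 higher (7.41%), and with the block and the GC and length correction 9 were lower (9.83%) and 2 higher (10.4%). Actb (adjusted p = 0.075), Tmsb4x (0.063), Actn4 (0.055) and Fhl2 (0.073) lost the call under the block, and Actg1 gained it (0.0049). Signs changed without Bhlhe22 replicate 1 for Capg, Cnn3, Myl6, Myl12a, Flna and Pdlim7. Over the fits without 1 library, log2 fold changes were -0.03 to 0.15 for Capg, -0.03 to 0.11 for Cnn3, -0.29 to 0.25 for Myl6, -0.11 to 0.21 for Myl12a, -0.14 to 0.05 for Flna and -0.1 to 0.12 for Pdlim7. Signs also changed for Myl6 with limma (-0.01) and with copies summed (-0.05), and for Pdlim7 under RLE scaling (0.0), library size alone (-0.02), DESeq2 (0.0) and limma (-0.01). The difference in the Tpm1 share of the tropomyosins, Bhlhe22 minus vector, was -2.0 percentage points from counts and -1.26 from FPKM. The length and GC correction and the summing of copies were chosen after seeing the data, and the cause of these changes was not tested. Genes under 20 counts per library were limited by depth.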

Other observations

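Of the 3 keratins listed as epithelial markers, 1 was lower, 1 was higher and 1 did not pass. Krt8, a keratin of simple epithelia, had 544.9 ± 34.0 CPM in Bhlhe22 cells and 756.6 ± 14.5 CPM in vector cells (SD, n = 3 each, log2 fold change -0.47, edgeR adjusted p = 0.0047), and passed without each library. Krt19 had 207.7 ± 19.0 CPM in Bhlhe22 cells and 157.1 ± 4.03 CPM in vector cells (log2 fold change 0.40, edgeR adjusted p = 0.015), and lost the call without any 1 vector replicate (0.063 to 0.074). Krt18 had 609.4 to 756.5 CPM in Bhlhe22 cells and 637.0 to 678.7 CPM in vector cells, which overlapped (log2 fold change 0.00, SE 0.10, edgeR adjusted p = 0.999). Pdgfrb, a growth factor receptor of mesenchymal cells, had 59.8 ± 7.61 CPM in Bhlhe22 cells and 41.5 ± 0.846 CPM in vector cells (0.53, edgeR adjusted p = 0.015). It passed without Bhlhe22 replicate 1 or 3 and not without any other library (0.057 to 0.072).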
